A study of Mus musculus with 6 samples.

Results

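The genes described are those of the mitochondrial ribosome, measured in the non-tumour liver of 6 male C57BL/6 mice. Members were chosen by gene name: every array probe, controls left out, whose gene name begins with Mrpl or Mrps and a digit. This gave 95 probes of 75 genes, out of 31896 gene symbols on the array. By the known structure of the mammalian mitochondrial ribosome, 48 of these genes encode proteins of the large subunit, 26 encode proteins of the small subunit, and Mrps36 encodes a protein of neither. Mrps30 and Mrps18a are placed in the large subunit in spite of their names. The family was selected for description with the diet differences of these same arrays known, so its counts and adjusted p-values describe the members and support nothing further.

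The mice of the restricted group (n = 3) were given a moderate restricted carbohydrate diet, and those of the control group (n = 3) a LabDiet control diet. Mice of both groups were 5 weeks old at the start, and all received, by hydrodynamic injection (a large volume pushed quickly into a tail vein, which brings DNA into liver cells), a transposon vector with human HrasG12V, an shp53 hairpin and GFP4, which is used to induce liver cancer. Per the sample labels, mice were fed for 1 week before the injection and killed after 5 weeks of diet, while the series text has 2 weeks and 4 weeks and describes a formula (MCDmp) with phytochemicals that the sample labels do not name. Titles of all 6 samples call the diet supplemented, on the restricted and the control diet alike, without saying with what. Each mouse gave 1 single-colour array of RNA from the non-tumour region of the liver.

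The mitochondrial ribosome translates the few proteins encoded by mitochondrial DNA, all of them core subunits of the respiratory chain and ATP synthase. Its RNAs come from mitochondrial DNA, but all of its proteins are encoded in the nucleus, made on cytosolic ribosomes and imported. Some descend from proteins of the bacterial ribosome, and others were added during mitochondrial evolution. Hepatocytes are rich in mitochondria, which carry out fatty acid oxidation, ketone body synthesis and part of the urea cycle.

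On the restricted diet, 40 of the 74 members tested were higher than on the control diet and none was lower, by limma at an adjusted p under 0.05 (Benjamini-Hochberg over all 19616 features). Of all features, 27.5% were called, 14.6% as higher and 12.8% as lower. The median difference of the members, restricted minus control, was 0.61 on the log2 scale (middle 50% of members, 0.45 to 0.82), which is 1.52-fold. The median of all features was 0.12, and the members' median lay 0.48 above it. A positive difference was seen for 71 of the 74. In 63 members every restricted mouse was above every control mouse, against 26.1% of all features, and in 1 member, Mrps6, every restricted mouse was below, against 18.8% of all features. The other 34 were not called, which does not show that they were equal on the diets.

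**Figure D1:**
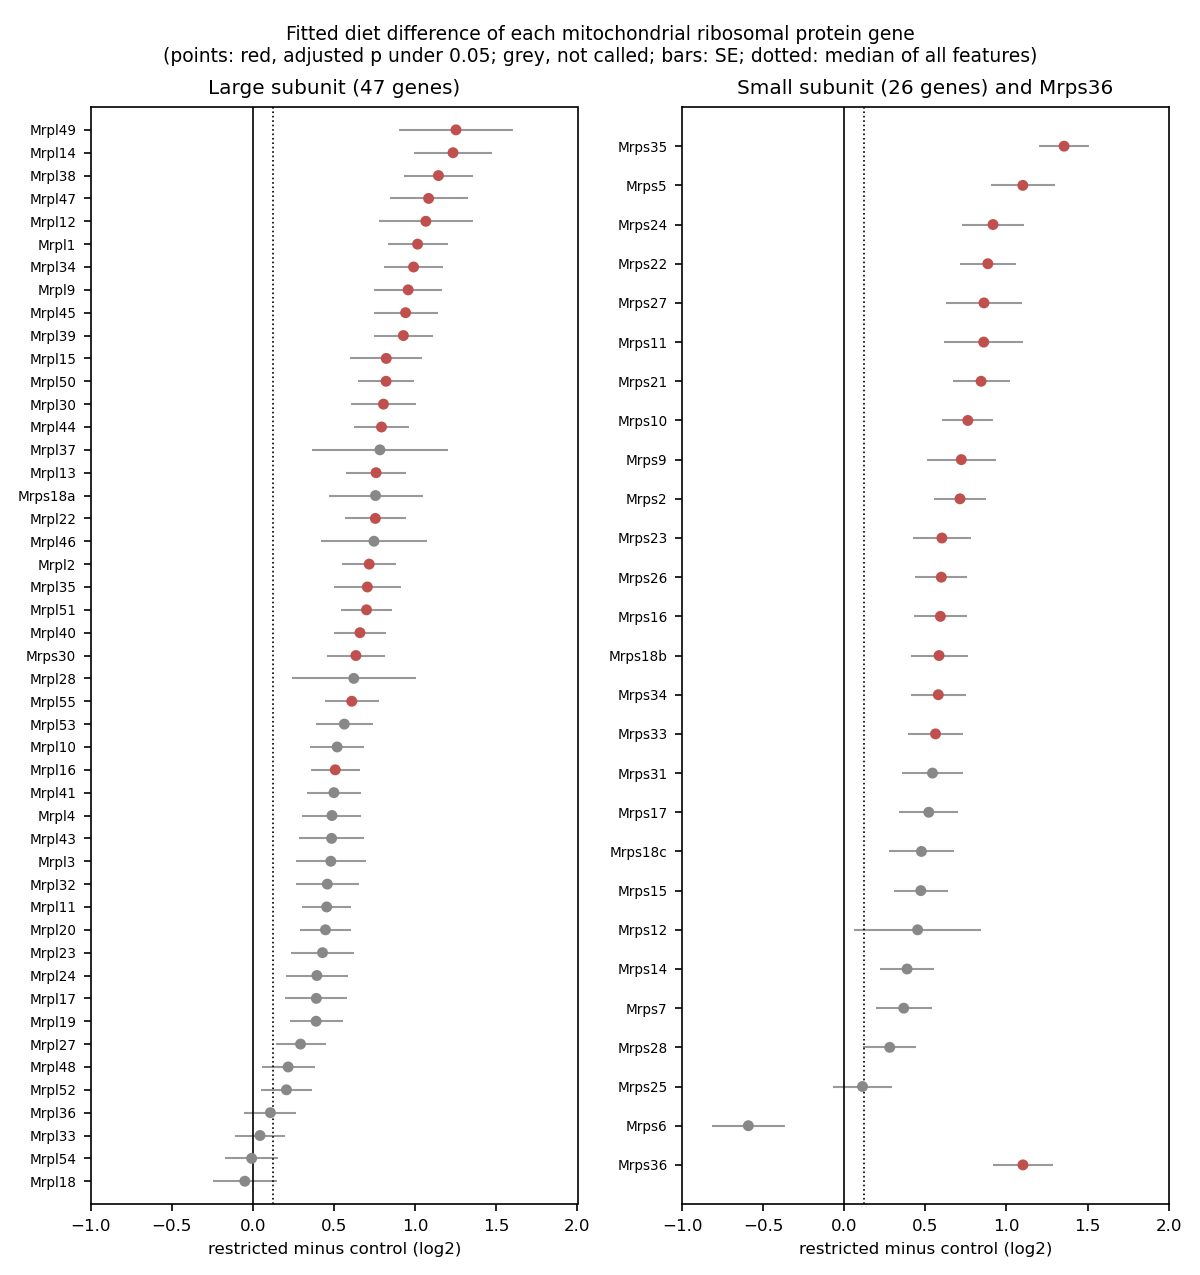
Fitted difference (restricted minus control, log2) of each of the 74 members tested, in order of size within each subunit. The large subunit is on the left and the small subunit on the right, with Mrps36 at the foot of the right panel, out of order. Points are limma estimates, bars are SE (n = 3 mice per diet), red points have an adjusted p under 0.05, and the dotted line is the median of all features (0.12). Mrps35 has the largest difference (1.36) and Mrps6 the only one under -0.1 (-0.59).

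The number of members called depended on the arrays used. The control mice and restricted mouse 1 shared 1 slide, and restricted mice 2 and 3 were on another, each slide with 1 scan time. The second slide holds no control mouse, so with slide as a block each difference rests on restricted mouse 1 against the control mice. With slide as a block 9 members were called higher, as were 5.7% of all features, and on the first slide alone, where restricted mouse 1 is the only mouse of its diet and is assumed to vary like the controls, 2 were, as were 4.1% of all features. Without restricted mouse 1, 2 or 3 the members called higher numbered 19, 12 and 25, beside 10.8%, 8.0% and 10.1% of all features. Without control mouse 1, 2 or 3 they numbered 21, 12 and 31, beside 8.6%, 8.1% and 16.7% of all features. On the first slide alone the median was 0.69 for the large subunit and 0.65 for the small subunit, and 71 of 74 members were positive. With quantile normalization the medians were 0.43 and 0.35, 67 members were positive and 23 were called higher, beside 14.2% of all features. All 40 members called were positive under each of 18 alternative settings, and 1 of them, Mrps35, was called in every setting.

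Log2 signal relative to each member's control mean gives a level for each mouse. For the large subunit, the median member stood at 0.69, 0.70 and 0.52 in restricted mice 1, 2 and 3, against 0.00, 0.00 and 0.00 in the control mice. For the small subunit it stood at 0.65, 0.61 and 0.49 in the restricted mice, against 0.02, 0.01 and -0.06 in the control mice. The diets therefore did not overlap for either subunit, and restricted mouse 3 was the lowest of its diet, which held for 49 of the 74 members. Control mouse 3 was the lowest of its diet for 38. The spread within a diet was a median SD of 0.15 on the restricted diet and 0.17 on the control diet.

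**Figure D2:**
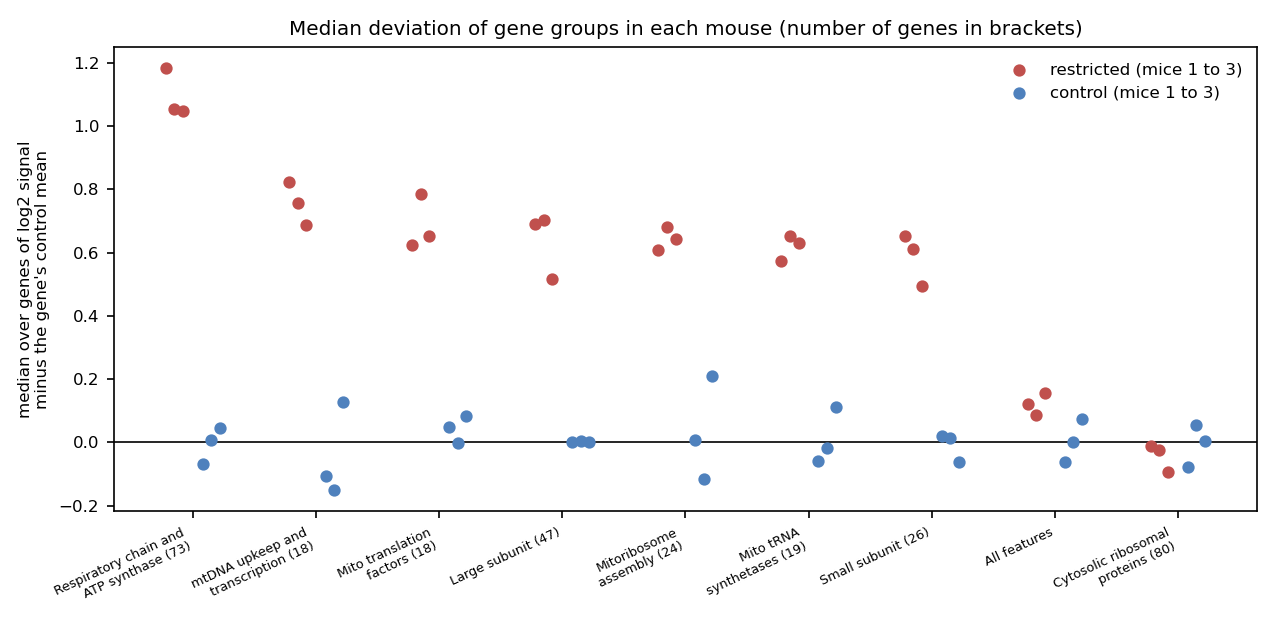
Median over the genes of each group of log2 signal minus the gene's control mean, in each mouse, with restricted mice in red to the left of control mice in blue. Large and small subunit both stand between 0.49 and 0.70 in the restricted mice and between -0.06 and 0.02 in the control mice, above all features (0.09 to 0.16 in the restricted mice) and below the nuclear genes of the respiratory chain and ATP synthase (1.05 to 1.18).

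The medians of the large and small subunit lay close together. Of 47 large subunit members tested 23 were higher (48.9%), with a median of 0.63 and a range of -0.05 to 1.25. Of 26 small subunit members 16 were higher (61.5%), with a median of 0.59 and a range of -0.59 to 1.36. The medians differed by 0.05, large minus small, and that difference turned to -0.04 without control mouse 3 and to -0.02 without restricted mouse 2, so its sign depends on single mice. Genes are not replicates, and no test was made of it. Differences over 1 were seen in 6 large and 2 small subunit members, and differences between 0.5 and 1 in 23 and 16.

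Members were also split into a mitochondria-specific and a bacterial-type class. Mrps18a and Mrps18b were put in the first and Mrps18c in the second, though all are paralogs of the S18 family. The classes therefore do not follow descent alone. Of the 28 mitochondria-specific members tested 17 were higher, with a median of 0.65, and of the 44 of bacterial type 21 were higher, with a median of 0.52. Over all features 14.6% were called higher, with a median of 0.12. Within the large subunit the medians were 0.72 for the mitochondria-specific and 0.51 for the bacterial-type proteins, and within the small subunit 0.59 and 0.56. Over both subunits together, mitochondria-specific members stood at 0.75, 0.69 and 0.54 in restricted mice 1, 2 and 3, and bacterial-type members at 0.61, 0.68 and 0.47. In the small subunit alone the order turned in restricted mouse 2, with 0.57 for mitochondria-specific and 0.70 for bacterial-type members. These are descriptions with no test, and 1 further member, Mrpl55, was put in neither class.

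The probes of 5 members are shown: Mrps35 had the largest difference, Mrps5 and Mrpl47 are, like it, read across an intron, Mrpl12 had a control mouse apart from the others, and Mrps6 was the member that was lower in every restricted mouse. All are 60 bases, lie on mm9, and were taken from the deposited array design. Probes of Mrps35, Mrps5 and Mrpl47 span more genome than their own length, so they cross an intron; 13 of the 95 member probes do. No exon or UTR annotation of mm9 was used here. Mrps35 lies at chr6:147009999-147019119, Mrps5 at chr2:127426599-127427149, Mrpl47 at chr3:32629104-32630111, Mrpl12 at chr11:120349740-120349799 and Mrps6 at chr16:92112223-92112282.
Mrps35: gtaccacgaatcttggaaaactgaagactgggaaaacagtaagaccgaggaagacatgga
Mrps5: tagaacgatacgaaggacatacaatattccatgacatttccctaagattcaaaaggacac
Mrpl47: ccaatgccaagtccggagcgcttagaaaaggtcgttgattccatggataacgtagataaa
Mrpl12: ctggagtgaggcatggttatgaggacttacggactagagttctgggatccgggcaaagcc
Mrps6: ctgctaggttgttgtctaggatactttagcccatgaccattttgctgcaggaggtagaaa

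Among the large subunit genes the largest differences were those of Mrpl49, Mrpl14, Mrpl38, Mrpl47, Mrpl12 and Mrpl1, all called. Mrpl14, which binds the anti-association factor Malsu1 during assembly, measured 5.64, 5.78 and 6.10 in restricted mice 1, 2 and 3, against 4.25, 4.60 and 4.97 in control mice (log2 signal minus the array's 75th percentile). The diets did not overlap, and Mrpl14 was higher by 1.23 (SE 0.24, limma adjusted p = 0.00992). Mrpl38, a mitochondria-specific protein of the central protuberance, measured 2.47, 2.26 and 2.89 in restricted mice, against 1.33, 1.28 and 1.57 in control mice, a difference of 1.14 (SE 0.21). Mrpl47, which lies near the exit of the peptide tunnel, measured 2.54, 2.12 and 1.77 in restricted mice, against 1.11, 0.83 and 1.24 in control mice, a difference of 1.08 (SE 0.24), and its other probe gave 1.10. Every restricted mouse was above every control mouse for both. Mrpl1, a protein of the L1 stalk that lines the exit side of the tRNA path, measured 0.21, 0.18 and -0.24 in restricted mice, against -0.923, -1.003 and -0.962 in control mice, a difference of 1.01 (SE 0.19).

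Mrpl49 and Mrpl12 each had 1 control mouse apart from the other two. Mrpl49, a mitochondria-specific protein, measured 1.64, 1.81 and 2.02 in restricted mice, against 0.13, 0.20 and 1.39 in control mice, and was higher by 1.25 (SE 0.35, limma adjusted p = 0.0373). Its other probe gave 0.70, and the 2 probes of Mrpl49 differed by 0.55, the widest gap of the 20 members with 2 probes. In that probe the control mice lay at 0.18, 0.21 and 0.12, with none apart. Mrpl12, the stalk protein that recruits translation factors, measured 4.55, 4.69 and 4.35 in restricted mice, against 3.84, 3.73 and 2.84 in control mice, and was higher by 1.06 (SE 0.29, limma adjusted p = 0.0343). With slide as a block, Mrpl49, Mrpl12, Mrpl14 and Mrpl38 were no longer called (limma adjusted p = 0.236, 0.164, 0.102 and 0.0785), while Mrpl47 and Mrpl1 were. Differences in that setting rest on restricted mouse 1 alone, at 1.48 for Mrpl47 and 1.17 for Mrpl1.

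At the low end of the large subunit, Mrpl33, a short bacterial-type protein, Mrpl54, a mitochondria-specific protein, and Mrpl18, the counterpart of bacterial uL18, were not called. Mrpl33 measured 4.88, 4.86 and 4.96 in restricted mice, against 4.78, 4.82 and 4.97 in control mice. Mrpl54 measured 3.338, 3.124 and 3.101 in restricted mice, against 3.25, 3.12 and 3.22 in control mice. Mrpl18 measured 3.48, 3.36 and 3.90 in restricted mice, against 3.66, 3.70 and 3.53 in control mice. The diets overlapped in all 3, with differences of 0.04, -0.01 and -0.05, whose signs turned under other scalings or without single mice. Mrpl21 was not well above background on any array and was not tested.

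In the small subunit, Mrps35, a mitochondria-specific protein of the subunit's head, had the largest difference of all members. It measured 1.79, 1.80 and 1.66 in restricted mice, against 0.41, 0.39 and 0.38 in control mice, and was higher by 1.36 (SE 0.15, limma adjusted p = 0.00122). The diets did not overlap, and the mice of each diet lay close together. Mrps5, a bacterial-type protein at the mRNA entrance, measured -0.03, -0.04 and -0.38 in restricted mice, against -0.99, -1.35 and -1.41 in control mice, a difference of 1.10 (SE 0.20). Mrps24, the counterpart of bacterial uS3, measured 3.099, 3.106 and 2.822 in restricted mice, against 2.31, 2.12 and 1.85 in control mice, a difference of 0.92 (SE 0.19). Mrps22, a mitochondria-specific protein, was higher by 0.89 (SE 0.17), with 1.69, 1.66 and 1.41 in restricted mice, against 0.58, 0.81 and 0.71 in control mice. In these 3 the lowest restricted mouse was above the highest control mouse.

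Mrps27, an RNA-binding protein of the pentatricopeptide repeat class, measured -0.40, -0.51 and -0.95 in restricted mice, against -1.14, -1.57 and -1.73 in control mice, and was higher by 0.86 (SE 0.24). Mrps11, the counterpart of bacterial uS11, measured 0.18, -0.18 and -0.66 in restricted mice, against -0.91, -1.14 and -1.20 in control mice, and was higher by 0.86 (SE 0.25). The diets did not overlap in either, but restricted mouse 3 lay close to the control mice. With slide as a block Mrps24 and Mrps27 were no longer called (limma adjusted p = 0.0693 and 0.0843), while Mrps35, Mrps5, Mrps22 and Mrps11 were. Differences in that setting rest on restricted mouse 1 alone, at 1.26 for Mrps11. Restricted mouse 3 enters that fit only through the spread within its slide, so a kept call does not compare it with the control mice. At the low end, Mrps28, the counterpart of bacterial bS1, had a difference of 0.28 and Mrps25, a mitochondria-specific protein, one of 0.11, and neither was called.

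Mrps6, the counterpart of bacterial bS6, ran the other way. It measured 1.34, 1.52 and 1.12 in restricted mice, against 2.30, 1.76 and 1.70 in control mice, a difference of -0.59 (SE 0.23) that did not pass the test (limma adjusted p = 0.0955). The diets did not overlap. The difference was negative under every alternative setting and lay between -0.73 and -0.40, nearest to 0 without control mouse 1.

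**Figure D3:**
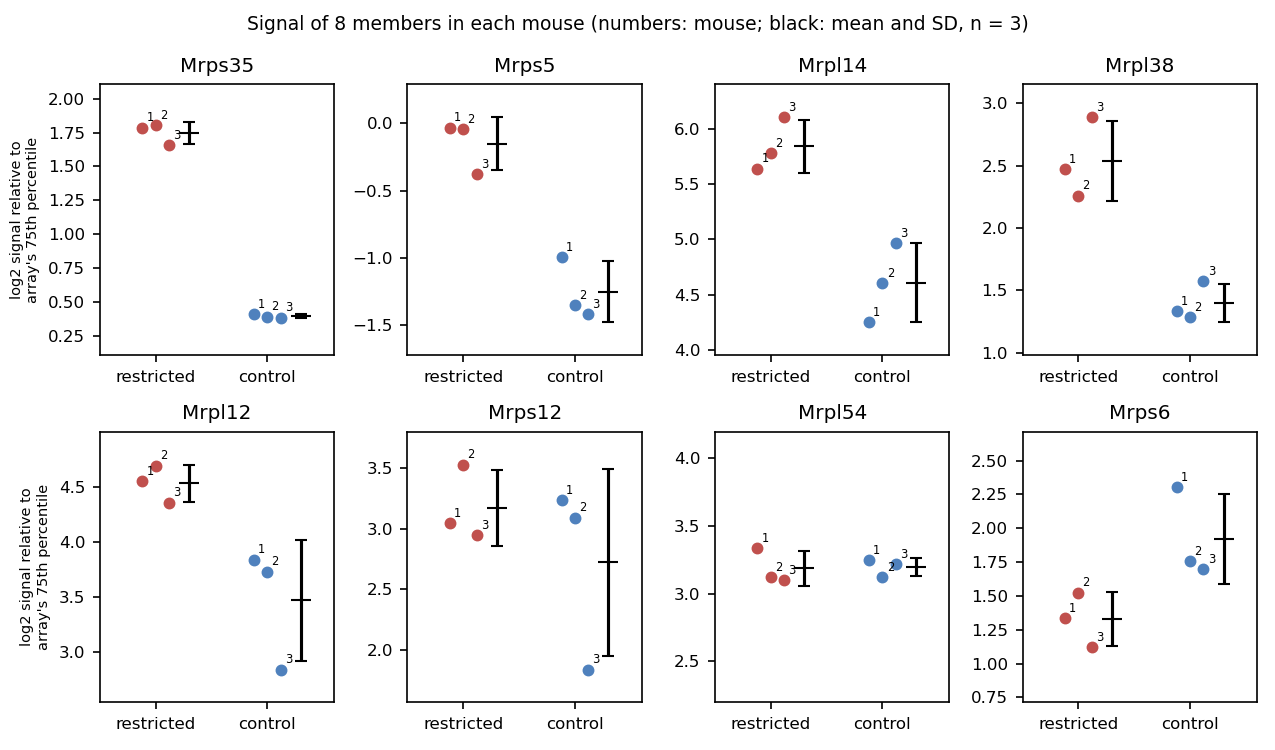
Log2 signal minus the array's 75th percentile in each restricted mouse (red, left) and each control mouse (blue, right) for 8 members, numbered by mouse, with the mean and SD (n = 3) in black; each panel has its own axis, so levels are not comparable between genes. Mrps35, Mrps5, Mrpl14 and Mrpl38 show no overlap, control mouse 3 lies low in Mrpl12 and Mrps12, Mrpl54 overlaps, and Mrps6 is lower in all restricted mice.

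The remaining members filled the range between these ends. In the large subunit 17 further members were higher, by 0.51 (Mrpl16) to 0.99 (Mrpl34), and 21 were not called, with differences of 0.11 (Mrpl36) to 0.78 (Mrpl37). In the small subunit 10 further members were higher, by 0.56 (Mrps33) to 0.84 (Mrps21), and 7 were not called, with differences of 0.37 (Mrps7) to 0.54 (Mrps31). The called and uncalled members of the large subunit overlap in size because their spread differs: Mrpl37 had the widest SD of all members in restricted mice (0.63).

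The 3 paralogs of the S18 family sit in different places in the ribosome. Mrps18a, in the large subunit, had a difference of 0.75 (adjusted p = 0.0974), with 2.24, 2.29 and 2.03 in restricted mice, against 1.75, 1.76 and 0.79 in control mice. Mrps18b, in the small subunit, was higher by 0.58 (limma adjusted p = 0.0467), and Mrps18c, also there, had a difference of 0.48 (adjusted p = 0.122). Every restricted mouse was above every control mouse in all 3, and the call of Mrps18b was kept in 4 of 18 alternative settings and lost in the others, among them slide as a block and each mouse left out. Mrps30, a mitochondria-specific protein of the large subunit, was higher by 0.63 (limma adjusted p = 0.0371), a call kept in 8 of the 18 settings. Mrps36, now known as a subunit of the 2-oxoglutarate dehydrogenase complex, was higher by 1.10 (SE 0.19, limma adjusted p = 0.00583), and its other probe gave 0.81. Mrps12, singled out after its values were seen, had the widest spread in the control mice (3.23, 3.09 and 1.84), against 3.05, 3.53 and 2.94 in restricted mice, a difference of 0.45 that was not called. Both probes of the 20 members that have 2 gave the same sign. RefSeq lists pseudogenes of Mrpl23, Mrpl27, Mrpl48 and Mrps36, whose share of the signal was not tested.

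Other genes of mitochondrial translation had list medians of 0.64 to 0.70. Of 7 further ribosomal proteins with other names 5 were higher, with a median of 0.65: Ptcd3, an RNA-binding small subunit protein, by 0.84, Chchd1, of the same subunit, by 0.79, and Aurkaip1, also of the small subunit, by 0.65. Of 24 assembly factors 10 were higher (median 0.65), among them Noa1, a GTPase of small subunit assembly, by 1.04, Mtg1, a GTPase of large subunit assembly, by 0.90, and Malsu1 by 0.79. Of 18 translation factors and related genes 9 were higher (median 0.70). Among these were Letm1, an inner membrane protein linked to mitochondrial ribosomes and not itself a translation factor, by 1.33, the elongation factor Tufm by 1.15 and the release factor Mtrf1 by 1.06. Of 19 genes for charging mitochondrial tRNAs 8 were higher (median 0.64), among them Gatb, which helps to form glutaminyl-tRNA, by 1.42, Fars2 by 0.87 and Lars2 by 0.71. None of these lists held a gene called lower.

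The genes that keep and transcribe mitochondrial DNA had a median of 0.79, with 10 of 18 higher, among them Polg2, a subunit of the mitochondrial DNA polymerase, by 1.74, Hsd17b10, a subunit of mitochondrial RNase P, by 1.39, and Top1mt, the mitochondrial topoisomerase, by 0.78. The nuclear genes of the respiratory chain and ATP synthase had a higher median than either subunit in every restricted mouse: 67 of 73 were higher and their median was 1.10. Of these 73 genes, 7 had a probe saturated on at least 1 array and 2 on all arrays. The 12 mitochondrially encoded transcripts tested had a median of 0.35 with none called, but 7 of their probes were saturated on all arrays and 8 on at least 1. The saturated levels are lower bounds, so the size of the differences of those probes cannot be read. Of 80 cytosolic ribosomal proteins 1 was higher and none lower, with a median of -0.07, and 30 had a probe saturated on at least 1 array. Cytosolic ribosomal proteins stood at -0.01, -0.03 and -0.09 in restricted mice, against -0.08, 0.05 and 0.00 in control mice.

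Of 14 regulators of mitochondrial genes 3 were higher (21.4%, against 14.6% of all features) and none lower. The list had a median of 0.03, against 0.12 for all features, and 7 of the 14 were positive. In 5 every restricted mouse was above every control mouse, and in 3 every restricted mouse was below. Ppara, the nuclear receptor of fatty acid oxidation, was higher by 1.65 (SE 0.28, limma adjusted p = 0.00558), Esrra, a nuclear receptor of mitochondrial genes, by 1.14 (SE 0.32), and Gabpa, an ETS factor also called NRF-2 alpha, by 0.68 (SE 0.18). Ppara measured 5.44, 5.53 and 5.68 in restricted mice, against 3.70, 3.50 and 4.49 in control mice, and Gabpa measured 0.33, 0.44 and 0.21 in restricted mice, against -0.16, -0.56 and -0.33 in control mice. Esrra measured 3.81, 3.90 and 3.72 in restricted mice, against 2.35, 2.24 and 3.41 in control mice. Nrf1, Myc and the coactivator gene Ppargc1a were not called, with differences of -0.52, -0.82 and -0.08 (adjusted p = 0.18, 0.467 and 0.896).

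Markers of other cell types moved with diet. The 10 macrophage markers were all lower, with a median of -2.23, and their summed level (linear signal over the array's 75th percentile) was 35.4 to 50.9 in restricted mice, against 196 to 264.9 in control mice. Of 10 neutrophil markers 6 were lower and 1, Elane (neutrophil elastase), was higher by 0.67. Lower calls were also made in other lists: of 10 stellate cell markers 7, of 9 cell division genes 8, of 9 T and NK cell markers 4, of 4 B cell markers 2 and of 7 bile duct markers 3, while 4 of 10 endothelial markers were higher. Of 10 hepatocyte markers none was called, with a median of 0.37 and 6 probes saturated on all arrays. In bulk tissue, fewer cells of a type and less RNA per cell cannot be told apart, and the part of cell makeup in the members' differences was not tested.

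Promoters of the members, 250 bases before to 50 after the start, were taken from RefSeq (GRCm38.p6), where 66 of the 75 members have one. Their median GC content was 58.5%, against 52.7% over 32851 promoters of all 27025 genes. The NRF1 motif (CGCANGCG, on either strand) was found in 28.8% of the members and 9.2% of all genes, the ETS motif (CCGGAAG) in 36.4% and 9.9%, and the YY1 motif (AANATGGCG) in 13.6% and 2.8%. The ESRRA motif (AAGGTCA) was found in 6.1% of members and 5.4% of all genes, and the E-box (CACGTG) in 7.6% and 8.1%. Of nuclear respiratory chain genes 41.0% held the NRF1 motif and 26.2% the ETS motif, and of cytosolic ribosomal protein genes 19.3% and 42.1%. By subunit, the NRF1 motif was in 31.7% of large and 26.1% of small subunit members, and the ETS motif in 31.7% and 43.5%. By call, the NRF1 motif was in 14 of 35 members higher on the restricted diet and in 5 of 30 not called. The ETS motif and the E-box went the other way, in 11 of 35 against 12 of 30 and in 1 against 4. The YY1 motif was in 5 against 4 and the ESRRA motif in 2 against 2. A match is a description of the letters in this window, and was not tested as a site.

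Promoters of 4 members are shown because they hold several of these motifs or lie face to face, with the motifs in capitals and in the direction of transcription. Mrpl12 lies at chr11:120484387-120484686 on the plus strand, with an NRF1 motif 80 bases before the start and another, with an ESRRA motif, after it. Mrps27 lies at chr13:99344536-99344835 on the plus strand, with motifs of NRF1, ETS and YY1. Mrps11 (chr7:78782881-78783180, plus strand) and Mrpl46 (chr7:78783040-78783339, minus strand) overlap, with starts 42 bases apart on opposite strands.
Mrpl12: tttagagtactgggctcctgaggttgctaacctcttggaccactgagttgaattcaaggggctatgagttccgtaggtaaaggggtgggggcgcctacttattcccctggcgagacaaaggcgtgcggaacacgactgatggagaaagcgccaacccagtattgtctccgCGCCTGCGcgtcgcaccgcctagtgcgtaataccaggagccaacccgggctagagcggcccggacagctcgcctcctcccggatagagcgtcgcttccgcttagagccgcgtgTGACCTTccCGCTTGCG
Mrps27: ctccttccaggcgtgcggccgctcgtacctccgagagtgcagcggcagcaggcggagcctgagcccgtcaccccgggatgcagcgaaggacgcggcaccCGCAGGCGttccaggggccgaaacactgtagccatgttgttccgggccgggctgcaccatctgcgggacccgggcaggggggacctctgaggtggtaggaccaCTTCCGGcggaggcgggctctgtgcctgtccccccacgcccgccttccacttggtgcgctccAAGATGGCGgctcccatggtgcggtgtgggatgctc
Mrps11: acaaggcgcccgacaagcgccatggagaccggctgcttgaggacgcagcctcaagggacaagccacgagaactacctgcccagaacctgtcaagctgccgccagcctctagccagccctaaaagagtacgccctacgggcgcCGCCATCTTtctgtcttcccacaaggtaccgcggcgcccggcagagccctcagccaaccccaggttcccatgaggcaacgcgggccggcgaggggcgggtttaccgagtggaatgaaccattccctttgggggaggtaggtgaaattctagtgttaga
Mrpl46: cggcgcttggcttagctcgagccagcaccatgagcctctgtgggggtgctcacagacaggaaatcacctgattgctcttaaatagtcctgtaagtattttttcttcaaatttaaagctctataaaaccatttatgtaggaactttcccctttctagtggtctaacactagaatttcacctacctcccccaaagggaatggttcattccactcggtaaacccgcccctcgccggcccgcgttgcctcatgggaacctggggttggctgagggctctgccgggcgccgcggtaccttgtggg

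Mrpl46, a large subunit protein, and Mrps11 had differences of similar size, though Mrpl46 was not called. Mrpl46 measured 0.92, 1.09 and 0.33 in restricted mice, against 0.53, 0.12 and -0.55 in control mice, a difference of 0.75 (SE 0.33, limma adjusted p = 0.139), and the diets overlapped. Mrps11 was higher by 0.86 (values above, limma adjusted p = 0.0395). In all, 25 of the 66 members with a promoter have a neighbour whose start lies head to head, at most 800 bases away, and 22 such pairs had both genes tested. In 3 of these pairs both were higher, in 8 the member only, in 4 the neighbour only and in 5 neither. The pair of Mrpl46 and Mrps11 was counted once, with Mrps11 as the neighbour, and is 1 of those 4. In 1 pair the member was higher and the neighbour lower, and in 1 the member was not called and the neighbour was lower. The median difference was 0.68 for the members and 0.47 for the neighbours, against 0.12 for all features. Of all features 14.6% were called higher and 12.8% lower.

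The pairs with both higher were Mrpl14 with Tmem63b (1.23 and 1.37), Mrpl47 with Ndufb5, a subunit of respiratory complex I (1.08 and 1.24), and Mrpl2 with Klc4, a kinesin light chain (0.72 and 1.24). The lower neighbours were Ncapd2, a subunit of condensin, at -0.95 beside Mrpl51 at 0.70, and Eme1, a subunit of a DNA repair nuclease, at -1.17 beside Mrpl27 at 0.29. Named pairs here were chosen after their values were seen.

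**Figure D4:**
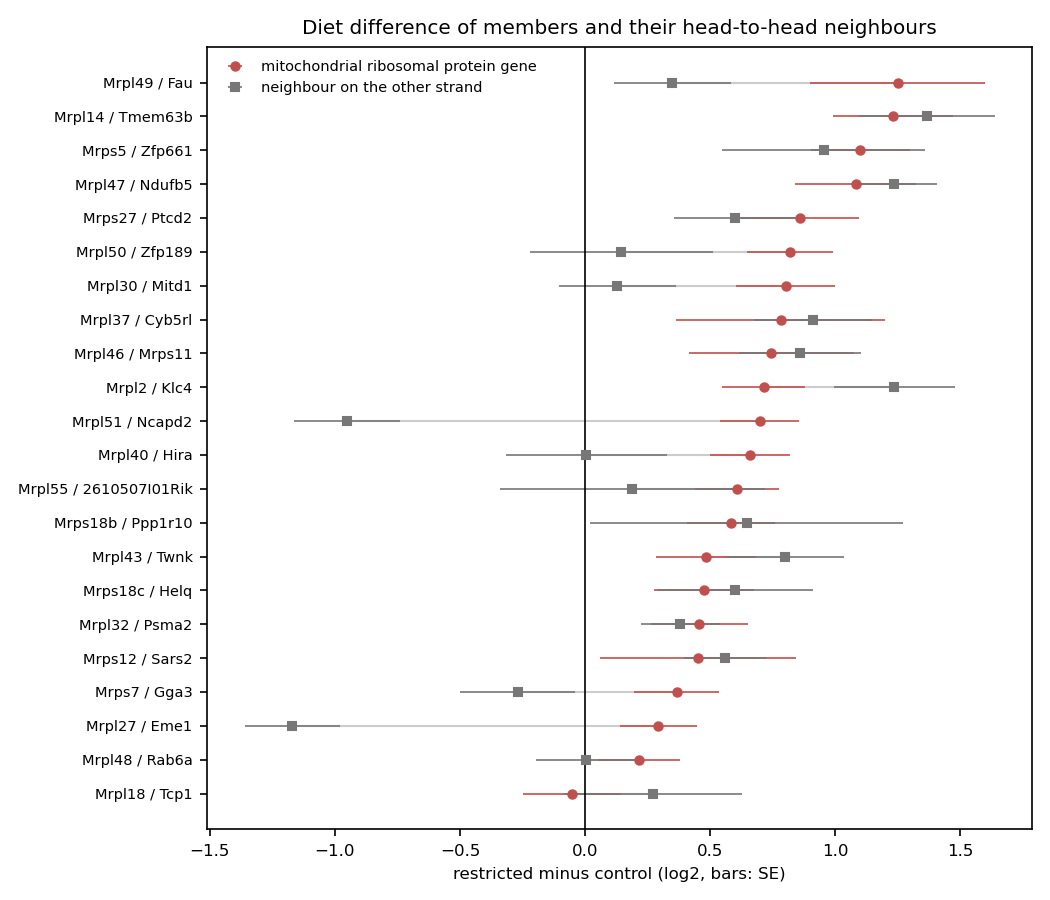
Fitted difference (restricted minus control, log2, bars SE) of each member in a head-to-head pair (red circles) and of its neighbour on the other strand (grey squares), in order of the member's difference. Tmem63b, Ndufb5 and Klc4 lie above 1 beside their members, Ncapd2 and Eme1 lie near -1 beside members with positive differences, and Mrps11 and Mrpl46 are a pair of members.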

How the data were processed

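RNA from the liver of 6 mice was measured on 1-colour Agilent arrays (design 026655, probe coordinates on mm9). The intensity values used were the deposited processed signals, made per the file headers with Agilent Feature Extraction 10.7.3.1; the submitters' processing notes name 9.3.2.1. The deposited value table matched them within 0.1% for 99.7% to 99.8% of probes. Here log2 was taken, spots of a probe were averaged, outlier spots left out and each array's 75th percentile subtracted. A probe was kept where every measured array of either diet had it well above background (24234 of 39429), and the brightest probe per symbol gave 19616 features. The 75th percentile of signal ran from 287 to 574, and each array had 23527 to 25816 probes above background; 3 arrays per diet limit the precision.

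The diets were compared with limma 3.58.1 in R 4.3.3 (lmFit, eBayes), with Benjamini-Hochberg adjustment over all features and a threshold of 0.05, tested on simulated data. Members and lists were chosen with earlier results of these data known. Named members are the 6 largest and 3 smallest differences of each subunit, Mrpl12, Mrps30, Mrps36 and the Mrps18 paralogs, those with probes of unlike sign and those below background; in other lists, up to 3 called genes with the smallest p. Promoter windows came from RefSeq. The labels name no pairs, and the main fit did not pair mice by replicate number. Deviations of mice with the same number correlated at 0.38, -0.00 and 0.48, and those of mice with different numbers at -0.50 to 0.12. Whether the numbers stand for pairs was not settled. Alternatives were normexp with an offset of 50, quantile and median scaling, the deposited table, 2 other background filters, trend and robust moderation, array weights, slide or mouse number as a block, slide 1 alone, each mouse left out, a threshold of 0.01 and the mean over probes.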

Additional observations from a re-analysis of the deposited data

How the results depend on the processing

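Members called higher numbered 40, and 23 with quantile normalization, 24 with no background filter (14.2% and 7.0% of all features were higher there, against 14.6%), 9 with slide as a block, 2 on slide 1 alone, 8 at an adjusted p under 0.01 and 12 to 31 with one mouse left out. Features called numbered 5386, and 3013 with slide as a block, 2444 on slide 1 alone, 2533 at an adjusted p under 0.01 and 3357 to 5889 with one mouse left out. With quantile normalization the median was 0.43 for the large subunit and 0.35 for the small subunit. With mouse number as a replicate block 42 members were higher, 38 of them among the 40, beside 18.6% of all features.

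Of the 74 members 6 changed sign in some setting. Mrpl18 was 0.041 with median scaling and -0.21 to 0.059 with one mouse left out. Mrpl33 was -0.023 with normexp and -0.26 with quantile normalization. Mrpl54 was 0.083 with median scaling, 0.14 with slide as a block or on slide 1 alone, and -0.084 to 0.034 with one mouse left out. Mrps25 was -0.087 with quantile normalization and -0.025 with slide as a block or on slide 1 alone. Mrpl52 (0.21) was -0.13 and Mrpl36 (0.11) was -0.099 at their lowest over the settings. The cause of these changes was not tested.

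No member lost its sign among the 40 called, and 68 of 74 kept theirs in all 18 settings. The other settings gave 36 to 46 members higher, beside 12.8% to 21.9% of all features. The number of arrays and the split of the restricted diet over slides limit these counts.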
